A study of Mus musculus with 36 samples.

Results

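The 9 genes described here build, load or control the major histocompatibility complex (MHC) class I molecules with which cells show peptides to CD8+ T cells: *B2m*, *H2-K1*, *H2-D1*, *H2-T23*, *Tap1*, *Tap2*, *Tapbp*, *Nlrc5* and *Erap1*. They were taken by name for their place in this pathway, 9 of 24781 genes in the table, and all 9 were present and passed the filter on low values in each cell type. An MHC class I molecule is a heavy chain folded with β2-microglobulin in the endoplasmic reticulum, where the transporter associated with antigen processing (TAP) delivers peptides from the cytosol, tapasin holds the empty molecule beside the transporter and the aminopeptidase ERAP1 trims peptides to length. Interferon-γ raises the transcription of many of these genes, and the regulator NLRC5 acts on their promoters together with the RFX, CREB/ATF and NF-Y factors. In a tumour, macrophages can present peptides on class I, and CD8+ T cells both read class I and carry it themselves.

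The study examined how B cells and the metabolite γ-aminobutyric acid (GABA) bear on tumour immunity, and sequenced tumour-associated macrophages (TAMs, sorted as CD45+CD11b+F4/80 high) and CD8+ T cells (CD45+TCRβ+CD8+) from MC38 tumours, a mouse colon adenocarcinoma grown in the skin. Tumours were taken on day 7, 100 cells went into each library, and the methods give 1 library per mouse. The 36 libraries fall into 6 groups of 6, with 3 groups per cell type: wild-type (WT) mice, *muMt*-/- mice, and *muMt*-/- mice with a GABA pellet (*muMt*-/- + GABA). WT mice were C57BL/6J or C57BL/6N and *muMt*-/- mice, which lack mature B cells from birth, were C57BL/6J; adults of both sexes were used. GABA was released slowly from a pellet placed under the skin 1 day before tumour cells were injected, and the other mice received a placebo pellet according to the methods, although the labels give their treatment as none. Among the 36 libraries there was no group of WT mice with GABA, so in these data the effect of GABA was measured in mice without B cells only. Whether 1 library per mouse holds across cell types or within each is not stated, so TAM and T cell libraries may share mice; all libraries were treated as independent, also between cell types.

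Values are numbers of RNA molecules, counted by molecular barcodes at the 3′ ends of polyadenylated RNA. Library totals had a lowest, median and highest value of 206394, 242756 and 304100 molecules in WT TAMs, 100254, 149960 and 253608 in *muMt*-/- TAMs, and 151856, 192775 and 262606 in *muMt*-/- + GABA TAMs. Totals were smaller in T cells, at 22896, 42065.5 and 76898 molecules in WT mice, 51064, 67121.5 and 77839 in *muMt*-/- mice, and 65356, 80283 and 98015 in *muMt*-/- + GABA mice. Below, a normalized number is a molecule count divided by the DESeq2 size factor of its library, computed within a cell type, and a share is given as molecules per 10000 of the library. Because molecules were counted at one end and not per length, levels are compared between groups within a gene and not between genes. Where libraries are counted as higher or lower without more words, they are counted against the median of the other group.

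Defining markers of the labelled cell types were present in all libraries, and some T cell libraries also held macrophage markers. Of 15 macrophage markers, 15 were detected in every TAM group, with *Apoe* the most abundant, and their summed share had a lowest, median and highest value of 133, 157 and 169 molecules per 10000 in WT TAMs, 115, 126 and 154 in *muMt*-/- TAMs and 89.4, 140 and 147 in *muMt*-/- + GABA TAMs. CD8 T cell markers, of which 10 of 12 were in the table, summed to 58.8, 67.5 and 95.7 per 10000 in WT T cells, 28.5, 64.8 and 93.4 in *muMt*-/- T cells and 38.9, 67.7 and 109 in *muMt*-/- + GABA T cells, with *Gzmb* the most abundant, and to at most 0.754 in any TAM library. Macrophage markers in T cells summed to 2.05, 3.49 and 14.1 per 10000 in WT, 7.79, 11.8 and 51.0 in *muMt*-/- and 3.19, 15.5 and 32.3 in *muMt*-/- + GABA mice; *Ctsb* was the most abundant, 15 of 15 were detected in both *muMt*-/- groups, and in WT T cells 12 were detected while *Adgre1*, *Mrc1* and *Mertk* were at 0. In *muMt*-/- T cell replicate 1 macrophage markers (51.0) exceeded T cell markers (28.5), and in *muMt*-/- + GABA replicate 1 the sums were 31.5 and 38.9. The 8 B cell markers reached at most 0.435 per 10000 in any library, and *Cd79a*, *Pax5* and *Blk* were at 0 in all 36. Dendritic cell markers reached 5.54 per 10000, in WT T cell replicate 3, where *Ccr7* was the only 1 of the 8 detected, and neutrophil markers 2.83. Tumour and stroma markers reached 49.3 in WT TAM replicate 6, with *Col1a1* the most abundant, and, with *Col3a1* the most abundant, 24.5 in *muMt*-/- + GABA TAM replicate 2, 19.5 in *muMt*-/- TAM replicate 3 and 10.9 in *muMt*-/- T cell replicate 3, and *Epcam* was at 0 in all TAM libraries.

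A few libraries stood apart from the other 5 of their group. The distance was the chi-square per gene between 2 libraries, averaged over the 5 pairs of a library with the others. This distance was 5.65 for *muMt*-/- + GABA TAM replicate 1, against 2.54 to 2.93 for the rest of its group, and that library also had the lowest macrophage markers of all TAMs, 89.4 per 10000. In T cells it was 4.80 for *muMt*-/- + GABA replicate 1 (others 2.57 to 3.24) and 3.61 for *muMt*-/- replicate 1 (others 2.17 to 2.81), which held macrophage markers at 31.5 and 51.0 per 10000. *muMt*-/- + GABA T cell replicate 3 held 32.3 per 10000 and had the lowest distance of its group, 2.57. *muMt*-/- TAM replicate 4 had a distance of 2.71 (others 1.70 to 2.06).

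The 9 genes together took about 1% of each library. Their molecules made up a lowest, median and highest 0.915%, 1.07% and 1.29% of all molecules in WT TAMs, 0.991%, 1.16% and 1.23% in *muMt*-/- TAMs and 0.826%, 1.18% and 1.48% in *muMt*-/- + GABA TAMs. In T cells the shares were 0.880%, 0.926% and 0.992% in WT, 0.892%, 0.928% and 0.993% in *muMt*-/- and 0.863%, 1.01% and 1.19% in *muMt*-/- + GABA mice. By median, the 3 T cell groups lay below the 3 TAM groups, and within a cell type neighbouring groups overlapped.

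**Figure D1:**
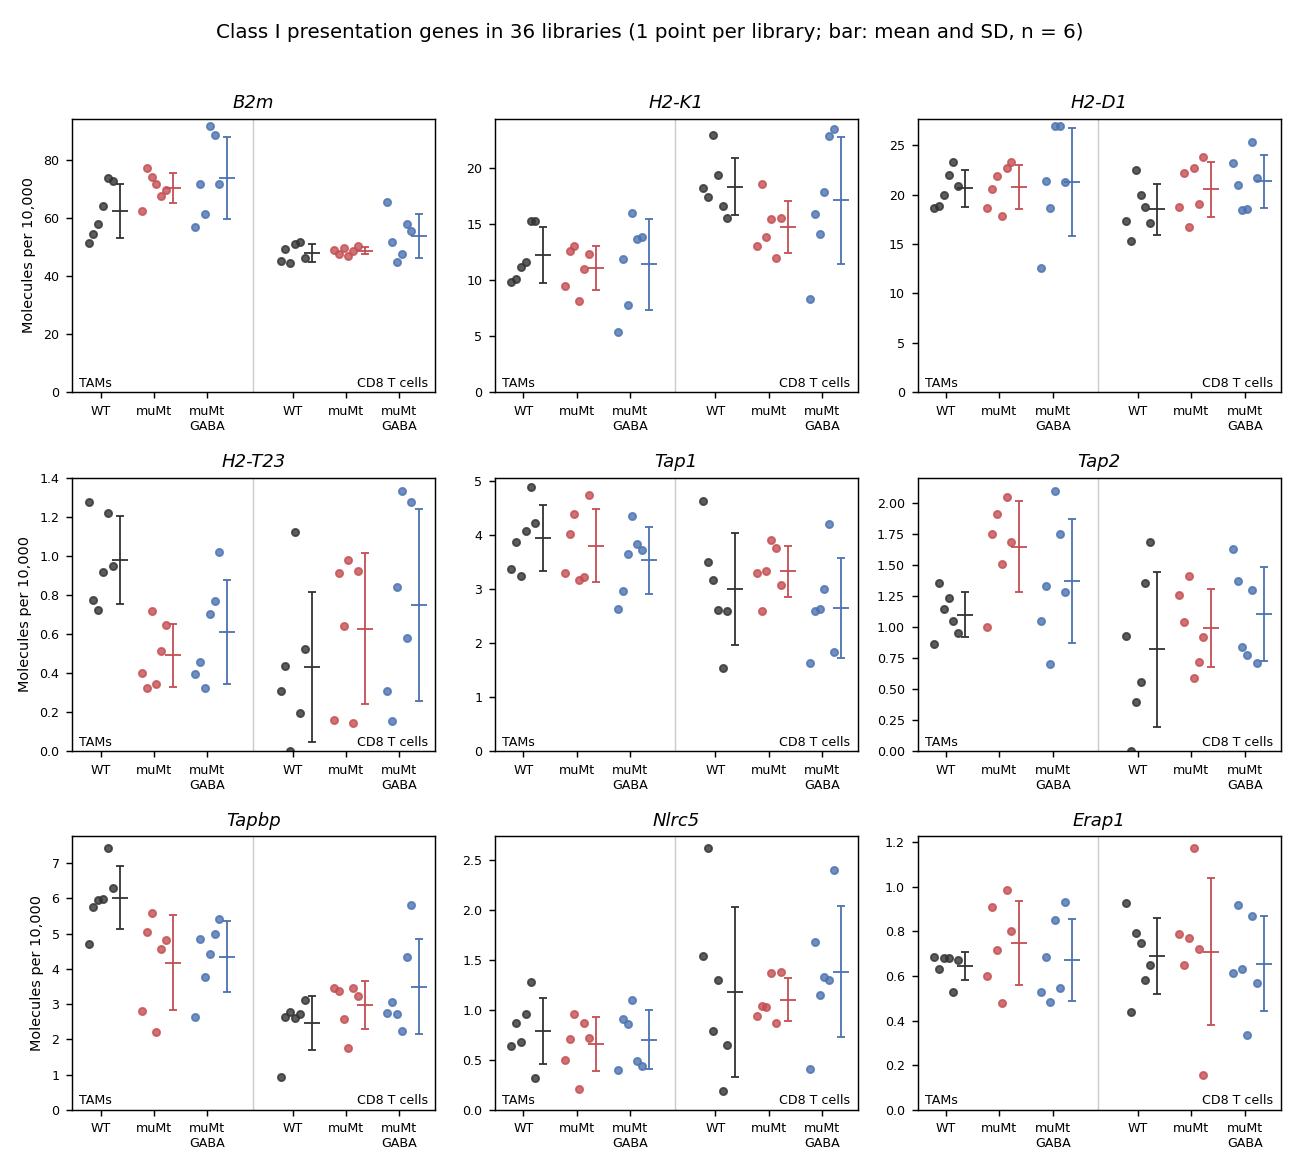
Molecules per 10000 molecules of the library (vertical axis) for each of the 9 class I genes, in 6 groups of 6 libraries (horizontal axis), with 1 point per library and bars for the mean and SD. *Tapbp* in WT TAMs (4.69 to 7.43) lies above WT T cells (0.926 to 3.12), and *H2-K1* in WT TAMs (9.88 to 15.3) lies below them (15.6 to 22.9).

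WT TAMs and WT CD8+ T cells were compared to see which parts of the pathway each cell type carries. Tapasin differed most clearly: the share of *Tapbp* was higher in all 6 TAM libraries than in any T cell library, in a comparison in which 22.7% of all genes tested passed the test. *H2-K1* went the other way as a share, lower in 6 of 6 TAM libraries, and its fitted difference passed the test only when libraries were scaled by their totals. *B2m* was higher in TAMs under all scalings tried, *Tap1* was called higher under all but the scaling by library totals, and *H2-D1* and *H2-T23* only under the scaling used for the values below.

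*B2m* encodes the light chain that every class I molecule needs. Its share had a lowest, median and highest value of 51.4, 61.1 and 73.9 molecules per 10000 in WT TAMs and 44.3, 47.7 and 51.6 in WT T cells, so that 5 of 6 TAM libraries lay above every T cell library. For *H2-K1*, a classical heavy chain, the shares were 9.88, 11.4 and 15.3 in TAMs and 15.6, 17.8 and 22.9 in T cells, with no overlap. The other classical heavy chain, *H2-D1*, overlapped, at 18.7, 20.4 and 23.3 in TAMs and 15.3, 18.02 and 22.5 in T cells. *H2-T23* encodes the non-classical heavy chain Qa-1, a ligand of CD94/NKG2 receptors. Its share was 0.724, 0.934 and 1.28 per 10000 in TAMs and 0, 0.373 and 1.12 in T cells, where 1 library held no molecule of it, and the groups overlapped in their ranges.

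Of the transporter subunits, *Tap1* stood at 3.24, 3.97 and 4.90 molecules per 10000 in WT TAMs and 1.55, 2.89 and 4.63 in WT T cells, and *Tap2* at 0.865, 1.10 and 1.36 in TAMs and 0, 0.743 and 1.69 in T cells. Both overlapped between cell types. *Tapbp*, which encodes tapasin, had shares of 4.69, 5.97 and 7.43 in TAMs and 0.926, 2.66 and 3.12 in T cells, with no overlap. The regulator *Nlrc5* was at 0.317, 0.777 and 1.28 in TAMs and 0.193, 1.05 and 2.62 in T cells, and the trimming enzyme *Erap1* at 0.526, 0.675 and 0.683 in TAMs and 0.437, 0.698 and 0.926 in T cells. For these last genes the cell types could not be separated by their ranges.

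By edgeR with trimmed-mean-of-M-values (TMM) scaling and Benjamini-Hochberg adjustment over all genes tested, 5 of the 9 genes were higher in WT TAMs at an adjusted p under 0.05, beside 22.7% of the 8477 genes tested (1420 up, 508 down). The shares of 2 of the 9 genes, *Tapbp* and *H2-K1*, did not overlap, beside 14.3% of 8474 genes tested with a name of their own. The median log2 fold change of the members was 0.52, and that of all genes 0.36. *Tapbp* had a log2 fold change of 1.59 (SE 0.26, n = 6 libraries per group, higher in 6 of 6, adjusted p by edgeR 1.73e-06) and *B2m* one of 0.75 (SE 0.15, 6 of 6 above the T cell median, adjusted p 6.04e-05, range over settings of the log2 fold change 0.38 to 0.86). Both were called in all 5 other settings, with adjusted p of 1.06e-09 to 0.000118 for *Tapbp* and 5.1e-05 to 0.0406 for *B2m*. The log2 fold changes of *Tap1* (0.82, SE 0.21, adjusted p 0.00275, range over settings 0.00335 to 0.147, and of the log2 fold change 0.47 to 0.92), *H2-T23* (1.31, SE 0.44, adjusted p 0.024, range 0.00724 to 0.125) and *H2-D1* (0.52, SE 0.16, adjusted p 0.0124, range 0.012 to 0.568, and of the log2 fold change 0.16 to 0.63) came from edgeR, and the shares of each lay above the T cell median in 6 of 6 TAM libraries. Other scalings moved the median of all genes by −0.16 (DESeq2 size factors) and −0.32 (library totals), and with each of them, and with DESeq2, 3 of the 9 genes were called. *H2-D1* and *H2-T23* lost their call with both scalings and with DESeq2, and *Tap1* with library totals. With library totals the 3 genes called were *B2m* and *Tapbp*, higher, and *H2-K1*, lower (log2 fold change −0.57, adjusted p by edgeR 0.0404, lower in 6 of 6; −0.20 and 0.542 with TMM; range 0.0404 to 0.881), and calls among all genes split into 968 up and 760 down, against 1017 up and 649 down by DESeq2. *Tap2* (0.46, range 0.15 to 0.56) was not called, *Nlrc5* (0.00) was lower under the other scalings, and *Erap1* (0.23) was lower with library totals (−0.09).

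In the rest of the pathway, taken from 6 lists, edgeR called 22 of 52 genes tested as higher in TAMs and 6 as lower, beside 22.7% of all genes, whose median log2 fold change was 0.36. The filter was on the mean over both cell types, so that genes of 1 cell type alone were also tested. The list of receptors for class I is left out here, because it holds *Cd8a* and *Cd8b1*, by whose product the T cells were sorted, and other genes near 0 in TAMs. In the list of peptide loading and endoplasmic reticulum folding, 6 of 8 genes tested were higher (5 by DESeq2), with a median log2 fold change of 1.04. Its most abundant members were the chaperones *Hspa5* (1.14), *Calr* (1.0), *Pdia3* (1.08) and *Canx* (0.92). Of peptidases and endosomal transport, 4 of 8 were higher, and of the immunoproteasome and its activator PA28 4 of 6 (*Psmb8* 0.86, *Psmb10* 1.19). Of the SXY enhanceosome, factors that act at class I and class II promoters, 2 of 8 were higher (*Nfya* 1.27, *Ciita* 3.59). DESeq2 called 3, 4 and 1 in these 3 lists, and the medians were 0.99, 0.76 and 0.36. Of the other class I heavy chains edgeR called 0 of 10 as higher and 3 as lower (*H2-Q7* −2.12, *H2-Q9* −2.13, *H2-Q4* −1.79), with 6 of 10 above 0 and a median of 0.13. The count of higher heavy chains was also 0 at unadjusted p under 0.05, and by DESeq2. *H2-Q7* and *H2-Q9* differed by at most 4 molecules in any of the 36 libraries, so their counts cannot be told apart as separate genes. In interferon-γ signalling 6 genes were higher, among them *Irf8* (0.92), and 3 lower, among them the receptor chain *Ifngr1* (−1.94), with a median of 0.85. *Ifng* itself is 1 of these 3 and of the 6 lower genes of all lists. It was near 0 in TAMs and passed the filter through the T cells, so its call is not read as a result. With library totals 13 of the 22 genes kept their call as higher and all 6 theirs as lower. The immunoproteasome went from 4 higher to 1 (*Psmb10*), where the 4 include *Psme2* and *Psme2b*, which have almost the same counts, and interferon-γ signalling went from 6 to 3. *Psmb8* (adjusted p by edgeR 0.0607, range 0.000409 to 0.0607) and *Irf8* (0.0512, range 0.000274 to 0.0512) were among those that lost it. Without the filter *H2-Q4* was not called (0.086, range 0.0187 to 0.086). In bulk samples fewer cells of a type and less RNA per cell cannot be told apart.

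The comparison of *muMt*-/- with WT TAMs sets macrophages from tumours of 1 cell line, grown in mice without and with B cells, side by side. *H2-K1*, *H2-D1*, *Tap1* and *Nlrc5* lay at like levels in both. Qa-1 (*H2-T23*) and tapasin were below the WT median in 6 of 6 libraries. *B2m* was above it in 6 of 6 and *Tap2* in 5 of 6, and *Erap1* was above every WT library in 4 of 6 and below every one in 1. These differences did not pass the threshold by edgeR with TMM scaling. That of *H2-T23* passed it in some other settings of edgeR, and those of *H2-T23* and *Tap2* by DESeq2.

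Light and heavy chains make up the class I molecule itself. Normalized numbers of *B2m* had a lowest, median and highest value of 963, 1123 and 1411 in WT TAMs, 1180, 1386 and 1479 in *muMt*-/- TAMs and 1148, 1351 and 1677 in *muMt*-/- + GABA TAMs. The 6 libraries of each *muMt*-/- group lay above the WT median, and all groups overlapped. *H2-K1* stood at 185, 210 and 293 in WT, 165, 229 and 252 in *muMt*-/- and 109, 239 and 292 in *muMt*-/- + GABA TAMs, and *H2-D1* at 350, 377 and 446, 352, 408 and 451, and 254, 401 and 495 in the same order. Neither classical heavy chain separated the groups, and the lowest value of both in the GABA group came from replicate 1. *H2-T23* was at 13.4, 17.1 and 23.9 in WT, 6.22, 8.86 and 13.8 in *muMt*-/- and 6.10, 10.7 and 19.1 in *muMt*-/- + GABA TAMs. In *muMt*-/- TAMs 5 of 6 libraries lay below every WT library and all 6 below the WT median. These numbers rest on 16 to 37 molecules per WT library and 4 to 15 per *muMt*-/- library.

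Peptides reach the molecule through TAP, a pair of subunits that both must be present. *Tap1* had normalized numbers of 60.0, 74.0 and 93.5 in WT, 62.2, 70.7 and 91.7 in *muMt*-/- and 53.1, 69.4 and 79.7 in *muMt*-/- + GABA TAMs. The groups overlapped, with 2 of 6 GABA libraries below every library of both other groups and 5 of 6 below each median. *Tap2*, its partner in the transporter, was at 16.2, 20.7 and 25.8 in WT, 18.8, 33.1 and 40.7 in *muMt*-/- and 13.2, 24.7 and 38.5 in *muMt*-/- + GABA TAMs. Of the 6 *muMt*-/- libraries 5 lay above every WT library, while the GABA group spanned both. *Tapbp* was at 87.8, 110 and 142 in WT, 44.6, 92.0 and 108 in *muMt*-/- and 53.1, 86.1 and 101 in *muMt*-/- + GABA TAMs. All 12 libraries of both *muMt*-/- groups were below the WT median, and the ranges overlapped. The regulator *Nlrc5* was at 5.81, 14.6 and 24.5 in WT, 4.18, 13.8 and 18.4 in *muMt*-/- and 7.97, 12.7 and 20.1 in *muMt*-/- + GABA TAMs, and *Erap1* at 10.04, 12.4 and 12.8, 9.76, 14.7 and 19.6, and 9.14, 11.8 and 17.5. Both overlapped throughout.

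By edgeR with Benjamini-Hochberg adjustment, 0 of the 9 genes were called between *muMt*-/- and WT TAMs, beside 2.05% of the 9469 genes tested (97 up, 97 down; 88 up and 131 down with library totals). At unadjusted p under 0.05 edgeR counted 3 of the 9, *Tap2* higher and *H2-T23* and *Tapbp* lower, beside 14.9% of all genes. DESeq2 called 2 of the 9 after adjustment, beside 282 of all 9469 genes, and 4 before it, beside 1111. *H2-T23* had a log2 fold change of −0.91 (SE 0.26, 95% interval −1.45 to −0.38, n = 6 per group, lower in 6 of 6, adjusted p by edgeR 0.0556). It was called with library totals (adjusted p by edgeR 0.0395), without the filter on low values (0.0204) and by DESeq2 (−0.91, adjusted p 0.0449), and when *muMt*-/- replicate 3 was left out (−1.09, adjusted p by edgeR 0.0372). Over all its alternatives the adjusted p ran from 0.0204 to 0.147, so the call hangs on the setting. *Tap2* had a log2 fold change of 0.67 (SE 0.21, 95% interval 0.24 to 1.10, higher than the WT median in 5 of 6, adjusted p by edgeR 0.0873), and by DESeq2 0.69 with an adjusted p of 0.0367, in a range of 0.0367 to 0.189. For *Tapbp* it was −0.47 (SE 0.19, 95% interval −0.85 to −0.10, lower in 6 of 6, adjusted p by edgeR 0.196, range 0.0931 to 0.439). The other 6 had log2 fold changes from −0.16 (*Nlrc5*) to 0.31 (*Erap1*), with *B2m* at 0.21, *H2-D1* at 0.05, *H2-K1* at −0.10 and *Tap1* at −0.02, which was above 0 with DESeq2 size factors. The median of the 9 was −0.02, and that of all genes −0.05. The count over all genes, 194, was 87 without WT replicate 1, 125 without WT replicate 6 and 67 without *muMt*-/- replicate 4; the count among the 9 genes was 1 without *muMt*-/- replicate 3 and 0 without any other library. Macrophage markers had a lower median in *muMt*-/- TAMs (126 per 10000) than in WT TAMs (157), as did library depth (149960 and 242756 molecules). Neutrophil markers (1.23 and 0.452 per 10000) and dendritic cell markers (0.371 and 0.178) had higher ones, and the part of all these in the values was not tested.

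**Figure D2:**
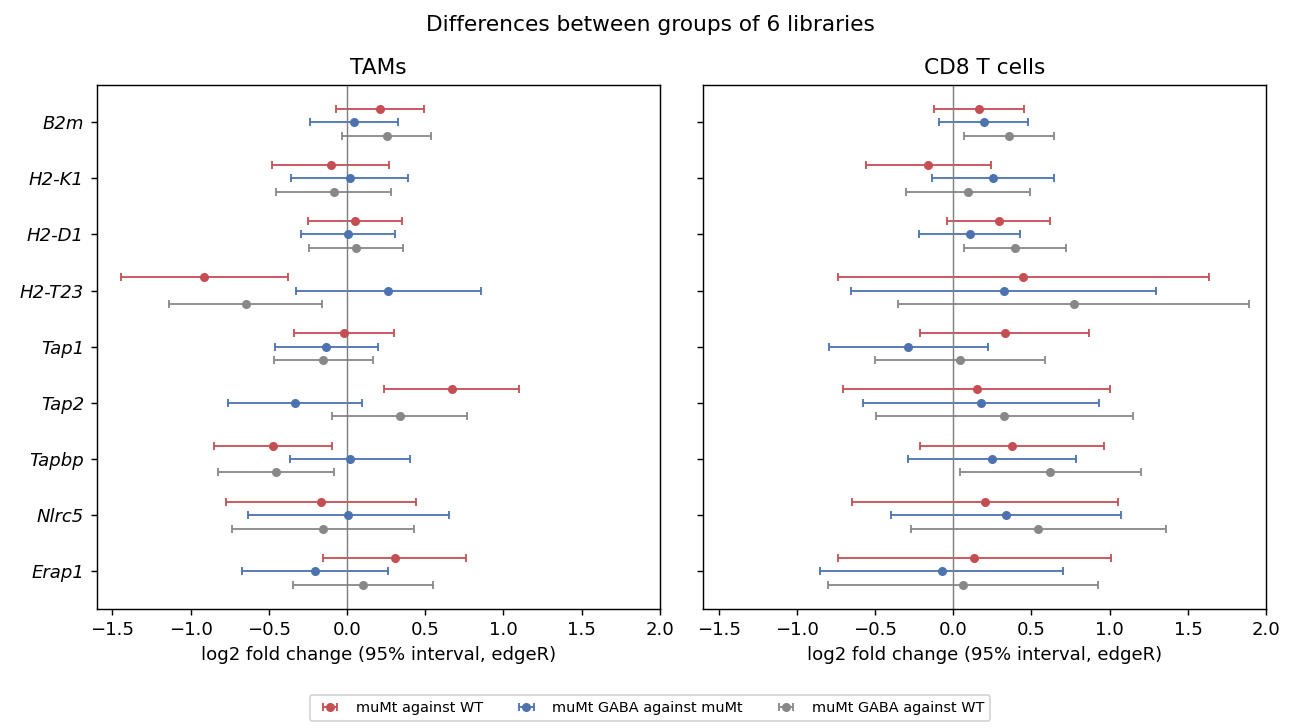
Log2 fold change with its 95% interval from edgeR (horizontal axis) for the 9 class I genes (vertical axis) in 3 comparisons within TAMs and 3 within CD8+ T cells, 6 libraries per group. In TAMs the interval of *H2-T23* in *muMt*-/- against WT runs from −1.45 to −0.38 and that of *Tap2* from 0.24 to 1.10.

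Around the 9 genes, 3 of 61 list genes tested passed the test between *muMt*-/- and WT TAMs by edgeR, beside 2.05% of all genes, and 5 by DESeq2, beside 282 of 9469 genes. *Psmb10* encodes a catalytic subunit of the immunoproteasome, the protease that cuts proteins into peptides for class I. Its normalized numbers were 54.5, 70.5 and 74.8 in WT, 29.3, 42.5 and 48.9 in *muMt*-/- and 17.3, 51.0 and 59.1 in *muMt*-/- + GABA TAMs. Every *muMt*-/- library lay below every WT library, and the GABA group overlapped both. *Lnpep* encodes an aminopeptidase of endosomes used in cross-presentation, and stood at 5.97, 9.12 and 12.6 in WT, 12.4, 16.9 and 24.9 in *muMt*-/- and 8.05, 9.92 and 13.3 in *muMt*-/- + GABA TAMs. Here 5 of 6 *muMt*-/- libraries were above every WT library, and 5 of 6 GABA libraries were below every *muMt*-/- library. *Irf2*, a factor that binds interferon-response promoters, was at 32.0, 37.9 and 47.4 in WT, 37.7, 63.3 and 77.4 in *muMt*-/- and 42.4, 49.6 and 63.4 in *muMt*-/- + GABA TAMs, with 5 of 6 *muMt*-/- libraries above every WT library.

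In this comparison *Psmb10* fell by 0.76 on the log2 scale (SE 0.20, lower in 6 of 6, adjusted p by edgeR 0.03), *Lnpep* rose by 0.92 (SE 0.23, higher in 6 of 6, adjusted p by edgeR 0.0273) and *Irf2* rose by 0.68 (SE 0.17, higher in 5 of 6, adjusted p by edgeR 0.0278). All 3 were called in the 5 other settings, and each lost its call when single libraries were left out. *Psmb10* had an adjusted p by edgeR of 0.0591 without WT replicate 1, 0.0525 without WT 2, 0.0573 without WT 6, 0.0708 without *muMt*-/- 1, 0.0564 without *muMt*-/- 2 and 0.0969 without *muMt*-/- 4, in a range over all alternatives of 0.00268 to 0.0969. For *Lnpep* it was 0.0755 without WT 1, 0.0553 without WT 2, 0.0969 without *muMt*-/- 4, 0.0521 without *muMt*-/- 5 and 0.0725 without *muMt*-/- 6 (range 0.017 to 0.0969). For *Irf2* it was 0.0673 without WT 1, 0.0628 without WT 2, 0.0605 without WT 6, 0.0587 without *muMt*-/- 2, 0.0915 without *muMt*-/- 3 and 0.0875 without *muMt*-/- 4 (range 0.00261 to 0.0915). Between *muMt*-/- + GABA and WT TAMs the log2 fold changes were −0.52 for *Psmb10* (lower than the WT median in 6 of 6, adjusted p by edgeR 0.515), 0.11 for *Lnpep* and 0.36 for *Irf2* (higher in 6 of 6, adjusted p 0.711), and between the *muMt*-/- groups *Lnpep* was lower with GABA in 6 of 6 at −0.81 (adjusted p by edgeR 0.25).

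By list, *muMt*-/- against WT TAMs gave these counts by edgeR. The immunoproteasome had 0 higher and 1 lower of 6, with 4 of 6 below 0 and a median log2 fold change of −0.39; its most abundant gene, *Psmb8*, was at −0.22. *Psme2* and *Psme2b*, which encode the same PA28 subunit or a copy of it, differed by at most 12 molecules in any library and do not count as separate evidence. Interferon-γ signalling had 1 higher and 0 lower of 12, with 9 above 0 and a median of 0.17; *Irf8* was at 0.50. Trimming and endosomal transport had 1 higher and 0 lower of 9, median 0.10. In the remaining 4 lists edgeR called 0 genes: other heavy chains (13 tested, median 0.09), loading and folding (8, −0.06; *Calr* −0.27, *Hspa5* 0.27), the SXY enhanceosome (9, −0.19) and receptors for class I (4, 0.15). At unadjusted p under 0.05 edgeR counted 1 of these heavy chains and 1 of these receptors as higher, 1 of the loading genes as lower and 0 of the SXY factors, and DESeq2 after adjustment called 0 in each of these 4 lists (before it, 1 heavy chain and 1 receptor higher, 2 loading genes higher and 1 lower, and 0 SXY factors) and 3 interferon-γ genes as higher. In the 3 lists with calls, edgeR at unadjusted p under 0.05 counted 4 interferon-γ genes higher and 0 lower. It counted 0 immunoproteasome genes higher and 3 lower, and 1 trimming gene higher and 1 lower, beside 14.9% of all genes. DESeq2 before adjustment counted 4 and 0, 1 and 2, and 1 and 0 in the same order. The median of all genes was −0.05.

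Between *muMt*-/- + GABA and *muMt*-/- TAMs, which asks what GABA changes when B cells are absent, the 9 genes showed small differences. *Tap2* was lower with GABA, below the *muMt*-/- median in 5 of 6 libraries, with a log2 fold change of −0.33 (SE 0.21, adjusted p by edgeR 0.716, range 0.578 to 0.84, and of the log2 fold change −0.49 to −0.22). *H2-T23* was at 0.27 (SE 0.29, above the *muMt*-/- median in 3 of 6, adjusted p by edgeR 0.856, range 0.742 to 1, and of the log2 fold change 0.041 to 0.44), *Erap1* at −0.20 (−0.32 to −0.065) and *Tap1* at −0.13 (−0.20 to −0.073). The other 5 lay within 0.05 of 0, and *H2-K1*, *H2-D1*, *Tapbp* and *Nlrc5* changed sign with DESeq2 size factors. Like *Tap2*, *Tap1* and *Tapbp* were below the *muMt*-/- median in 5 of 6 libraries. EdgeR called 0 of the 9, beside 0.0211% of all genes (2 of 9469), and counted 0 of them at unadjusted p under 0.05, beside 8.46%. DESeq2 counted 0 of the 9 before and after adjustment, beside 580 and 62 of all genes. It gave *H2-T23*, *Tap2*, *Nlrc5* and *Erap1* no adjusted p, so these could not be called after adjustment. Ranges given for them leave DESeq2 out. The 2 genes called by edgeR over the table are outside the 9 and outside the pathway lists. Over all genes the count was 36 without GABA replicate 1, the library that stood apart, 12 without *muMt*-/- 5, and 5 without *muMt*-/- 2 or GABA 2, and among the 9 genes it was 0 each time. The members' median was 0.01, that of all genes 0.06, and those of the lists ran from −0.30 (trimming) to 0.15 (immunoproteasome), with 0 genes called in any list by edgeR or DESeq2. Before adjustment edgeR counted 2 list genes as higher and 5 as lower at unadjusted p under 0.05, and DESeq2 0 and 7. Medians of macrophage markers (140 per 10000 with GABA and 126 without), stroma markers (5.15 and 3.69) and depth (192775 and 149960 molecules) were higher with GABA and those of neutrophil markers (0.804 and 1.23) and dendritic cell markers (0.287 and 0.371) lower, and their part was not tested.

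The comparison of *muMt*-/- + GABA with WT TAMs shares its WT libraries with that of *muMt*-/- TAMs. Its largest differences were lower values of *H2-T23* and *Tapbp* and higher values of *Tap2* and *B2m*. *H2-T23* was below every WT library in 4 of 6 and below the WT median in 5 of 6, with a log2 fold change of −0.65 (SE 0.24, adjusted p by edgeR 0.54, range 0.269 to 0.738). *Tapbp* was below the WT median in 6 of 6, at −0.45 (SE 0.18, adjusted p by edgeR 0.579, range 0.293 to 0.796), and *B2m* above it in 6 of 6, at 0.25 (SE 0.14, adjusted p by edgeR 0.748, range 0.51 to 0.878). *Tap2* was at 0.34 (SE 0.21, above the WT median in 5 of 6, adjusted p by edgeR 0.793, range 0.677 to 0.89, and of the log2 fold change 0.18 to 0.46), and the others lay between −0.15 and 0.10. EdgeR called 0 of the 9, beside 0.0739% of all genes (7 of 9469, 4 up and 3 down), and counted 2 at unadjusted p under 0.05, both lower, beside 7.02%. DESeq2 called 0 of the 9 after adjustment, beside 13 of all genes, and 3 before it, beside 440. It gave *H2-T23*, *Nlrc5* and *Erap1* no adjusted p here, so these could not be called after adjustment. The range given for *H2-T23* leaves DESeq2 out. Over all genes the count was 2 without WT 3, WT 6, GABA 2 or GABA 3 and 3 without WT 1, WT 2, WT 4 or GABA 1. The median of the 9 was −0.09 and that of all genes 0.02. In the lists edgeR and DESeq2 called 0 genes (at unadjusted p under 0.05, 3 higher and 4 lower by edgeR and 1 higher and 4 lower by DESeq2), with medians from −0.16 (trimming) to 0.14 (other heavy chains). Medians of macrophage markers (140 per 10000 with GABA and 157 in WT) and depth (192775 and 242756 molecules) were lower than in WT and those of neutrophil (0.804 and 0.452), dendritic cell (0.287 and 0.178) and stroma markers (5.15 and 3.49) higher, and their part was not tested.

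In CD8+ T cells 0 of the 9 class I genes were called between groups by edgeR or DESeq2. *B2m* and *H2-D1* were higher by median in *muMt*-/- + GABA mice than in WT mice. *H2-K1* was lower than every WT library in 5 of 6 *muMt*-/- libraries. Depth was lower than in TAMs, and the 95% interval of the log2 fold change between *muMt*-/- and WT T cells ran from −0.74 to 1.64 for *H2-T23* and from −0.70 to 1.01 for *Tap2*.

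Normalized numbers of *B2m* in T cells had a lowest, median and highest value of 248, 270 and 305 in WT, 269, 273 and 315 in *muMt*-/- and 265, 309 and 409 in *muMt*-/- + GABA mice. In the GABA group 4 of 6 libraries lay above every WT library, and the highest, replicate 1, is one that stood apart. *H2-K1* was at 90.1, 103 and 128 in WT, 67.9, 84.0 and 106 in *muMt*-/- and 52.1, 97.4 and 131 in *muMt*-/- + GABA T cells, the lowest value again from GABA replicate 1, so that the same library was highest for *B2m* and lowest for *H2-K1*. *H2-D1* was at 84.2, 107 and 126 in WT, 99.1, 124 and 130 in *muMt*-/- and 103, 123 and 144 in *muMt*-/- + GABA T cells. The groups overlapped for all 3 genes. *Tapbp* was at 5.50, 15.0 and 18.03 in WT, 10.1, 18.4 and 22.2 in *muMt*-/- and 12.4, 17.7 and 32.3 in *muMt*-/- + GABA T cells, and *Tap1* at 9.15, 16.4 and 27.5, 14.9, 20.5 and 22.4, and 10.2, 15.5 and 22.6. Both overlapped, and the lowest *Tapbp* value rests on 3 molecules. *H2-T23* ran from 0 to 6.19, 0.818 to 5.61 and 0.914 to 7.43 in the same order of groups, *Tap2* from 0 to 9.76, 3.36 to 8.38 and 3.94 to 10.2, *Nlrc5* from 1.14 to 14.4, 4.91 to 7.85 and 2.54 to 13.4, and *Erap1* from 2.40 to 5.50, 0.833 to 6.73 and 1.86 to 5.49. The single value of 0 was in WT replicate 3 for *H2-T23* and in WT replicate 2 for *Tap2*.

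Between *muMt*-/- and WT T cells, 8 of the 9 genes had a log2 fold change above 0, from 0.14 (*Erap1*) to 0.45 (*H2-T23*, range over alternatives 0.26 to 0.99), with *B2m* at 0.17 (0.034 to 0.20), *H2-D1* at 0.29 (0.16 to 0.33), *Tap1* at 0.33 (0.18 to 0.46) and *Tapbp* at 0.37 (0.19 to 0.48), and *H2-K1* one of −0.16 (SE 0.20, lower than every WT library in 5 of 6, adjusted p by edgeR 0.96, range 0.905 to 1, and of the log2 fold change −0.30 to −0.11). EdgeR called 0 of the 9, beside 0% of 6663 genes, and 0 of the 9 at unadjusted p under 0.05, as did DESeq2; the unadjusted count over all genes by edgeR was 411 (6.17%). The median of the 9 was 0.20 and that of all genes 0.15, which fell to 0.05 with library totals. Without WT replicate 5, 13 genes of the table were called, and 0 of the 9. The summed macrophage markers had a higher median in *muMt*-/- (11.8 per 10000, and 51.0 in replicate 1) than in WT T cells (3.49), as did tumour and stroma markers (5.24 and 1.43), neutrophil markers (0.608 and 0) and library depth (67121.5 and 42065.5 molecules). Replicate 1 had the highest *B2m* and *Tapbp* of its group, and without it the log2 fold changes were 0.16 for *B2m* (0.17 with it), 0.33 for *Tapbp* (0.37), 0.63 for *H2-T23* (0.45) and −0.13 for *H2-K1*. The part of markers and depth in these values was not tested. Between *muMt*-/- + GABA and *muMt*-/- T cells edgeR again called 0 of the 9, beside 0% of all genes, counted 0 at unadjusted p under 0.05, as did DESeq2, and every adjusted p by edgeR was 0.999, with log2 fold changes from −0.29 (*Tap1*, range over alternatives −0.45 to −0.21) to 0.34 (*Nlrc5*, 0.11 to 0.51). Over all genes 247 (3.71%) were under 0.05 unadjusted, and 1 was called without *muMt*-/- 6 or GABA 2. The median of the 9 was 0.19, with 7 of 9 above 0, and that of all genes 0.03. Medians of macrophage markers (15.5 per 10000 with GABA and 11.8 without), neutrophil markers (0.765 and 0.608) and depth (80283 and 67121.5 molecules) were higher with GABA. That of tumour and stroma markers (1.93 and 5.24) was lower, and their part was not tested.

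Between *muMt*-/- + GABA and WT T cells all 9 log2 fold changes were above 0 under TMM, with a median of 0.36 beside 0.21 for all genes, and with DESeq2 size factors or library totals those of *H2-K1* (0.10), *Tap1* (0.04) and *Erap1* (0.06) were below 0. These scalings moved the median of all genes by −0.15. *B2m* had a log2 fold change of 0.36 (SE 0.14, above the WT median in 4 of 6, adjusted p by edgeR 0.585, range 0.502 to 0.999, and of the log2 fold change 0.17 to 0.40), *H2-D1* one of 0.40 (SE 0.16, above the WT median in 5 of 6, adjusted p by edgeR 0.61, range 0.549 to 0.999, and of the log2 fold change 0.21 to 0.44) and *Tapbp* one of 0.62 (SE 0.28, above the WT median in 5 of 6, adjusted p by edgeR 0.671, range 0.598 to 0.999, and of the log2 fold change 0.40 to 0.69). Without GABA replicate 1, which stood apart, the log2 fold changes were 0.21 for *B2m*, 0.29 for *H2-D1* and 0.60 for *Tapbp* (adjusted p by edgeR 0.973 each). EdgeR called 0 of the 9, beside 0% of all genes, and counted these 3 at unadjusted p under 0.05, while DESeq2 counted 0 of the 9 before and after adjustment. Over all genes 459 (6.89%) were under 0.05 unadjusted, and 1 was called without WT 6 or GABA 1. The summed macrophage markers also had a higher median in this group (15.5 per 10000) than in WT T cells (3.49), with 31.5 in replicate 1 and 32.3 in replicate 3. So did neutrophil markers (0.765 and 0), tumour and stroma markers (1.93 and 1.43) and library depth (80283 and 42065.5 molecules). The part of all these in the higher values was not tested.

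The pathway lists gave 0 calls by edgeR in all 3 comparisons of T cells. At unadjusted p under 0.05 edgeR counted 2, 1 and 5 of 58 list genes as higher in *muMt*-/- against WT, GABA against *muMt*-/- and GABA against WT, and 0 as lower. Over all genes the shares under 0.05 were 6.17%, 3.71% and 6.89%, with 358, 134 and 399 genes higher and 53, 113 and 60 lower. DESeq2 counted 1, 1 and 3 list genes as higher and 1, 0 and 1 as lower before adjustment, and 0 after it. In *muMt*-/- against WT T cells the medians were 0.37 for interferon-γ signalling (10 of 12 above 0), 0.27 for loading and folding (7 of 8 above 0), 0.17 for trimming and for receptors, 0.16 for the SXY enhanceosome, 0.13 for the immunoproteasome and −0.09 for other heavy chains, beside 0.15 for all genes. In GABA against WT T cells interferon-γ signalling was at 0.39, loading and folding at 0.31, trimming at 0.28, the immunoproteasome at 0.26, the SXY enhanceosome at 0.09 and receptors and other heavy chains at −0.04, beside 0.21 for all genes. In GABA against *muMt*-/- T cells list medians ran from −0.22 (SXY enhanceosome) to 0.27 (immunoproteasome), beside 0.03 for all genes. *Ifng*, the gene for the cytokine that raises class I transcription, had normalized numbers of 101, 262 and 326 in WT, 107, 202 and 362 in *muMt*-/- and 183, 398 and 754 in *muMt*-/- + GABA T cells. The GABA group was the highest by median and overlapped both others, with a log2 fold change against *muMt*-/- of 1.02 (adjusted p by edgeR 0.999, above the *muMt*-/- median in 5 of 6).

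Whether the effect of the genotype differed between cell types was tested as an interaction over all 36 libraries. *Tapbp* and *H2-T23* were lower in *muMt*-/- than WT TAMs and higher in *muMt*-/- than WT T cells, with a difference of log2 fold changes of −0.87 for *Tapbp* (SE 0.35, adjusted p by edgeR 0.392, range 0.29 to 0.62) and −1.37 for *H2-T23* (SE 0.63, adjusted p by edgeR 0.442, range 0.407 to 0.638). In TAMs 6 of 6 libraries lay below the WT median for each, and in T cells 5 of 6 (*Tapbp*) and 4 of 6 (*H2-T23*) lay above it. Both genes were higher in WT TAMs than in WT T cells, and macrophage markers had a median of 11.8 per 10000 in *muMt*-/- T cells and 3.49 in WT T cells, against 126 and 157 in TAMs; their part in this difference was not tested. EdgeR called 0 of the 9, beside 0.0118% of all genes (1 of 8477, outside the 9 and the lists), and counted these 2 at unadjusted p under 0.05, beside 10.1%. DESeq2 counted 0 of the 9 before and after adjustment, beside 600 and 38 of all genes. In the pathway lists edgeR called 0 genes, and DESeq2 called 1 interferon-γ gene with a difference above 0 and 1 loading gene with one below 0. The median of the 9 differences was −0.27 and that of all genes −0.30 (moved by 0.19 with DESeq2 size factors). For GABA against *muMt*-/- edgeR called 0 of the 9, beside 0% of all genes, and 0 at unadjusted p under 0.05, beside 4.53%; DESeq2 also counted 0 of the 9 before and after adjustment. The median difference was −0.17 for the 9 and 0.01 for all genes.

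Within TAMs 9 of 36 pairs of class I genes varied together from library to library, all of them among 5 genes. Correlations were computed for all 36 pairs of the 9 genes over the 18 libraries of a cell type, on log2 normalized numbers with the group means removed, and p-values came from 100000 permutations within groups, Benjamini-Hochberg adjusted over the 36 pairs. In TAMs all 36 values of r were above 0, from 0.09 to 0.88 with a median of 0.50, and 9 pairs passed in both Pearson's r and Spearman's rho, each with r of at least 0.63, beside 4.23% of all pairs of 1584 other genes with a mean normalized number of 20 or more that had such an r (median 0.005; not matched for level, and added after seeing the data). The classical heavy chains *H2-K1* and *H2-D1* had r = 0.88 and rho = 0.81 (permutation p 0.00013 and 0.0006, adjusted 0.00234 and 0.0072), and r = 0.70 when the 2 libraries farthest from the *H2-K1* median were dropped. *H2-K1* and *Tapbp* had r = 0.78 and rho = 0.80 (permutation p 8e-05 and 6e-05, adjusted 0.00234 and 0.00216), and 0.76 without 2 libraries. *B2m* and *H2-K1* had r = 0.80 and rho = 0.78 (permutation p 0.00048 and 0.0015, adjusted 0.00576 and 0.0108), and 0.78 without 2 libraries. The other 6 pairs that passed joined *B2m*, *H2-K1*, *H2-D1*, *Tap1* and *Tapbp* with each other, with r from 0.63 to 0.74, and *H2-T23*, *Tap2*, *Nlrc5* and *Erap1* were in 0 of the 9.

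Fewer pairs passed when 1 library was left out, and no other library was left out of the correlations for comparison. *muMt*-/- + GABA TAM replicate 1 had the lowest value of its group for *B2m* (1148), *H2-K1* (109), *H2-D1* (254), *Tap1* (53.1), *Tapbp* (53.1) and *Nlrc5* (7.97). Without it, a choice made after seeing the data, 35 of 36 values of r in TAMs were above 0, the median was 0.48 and 5 pairs passed, with r of at least 0.725 (0.665% of the pairs of other genes), 4 of them among the 9: *H2-K1* with *H2-D1* (0.79), *Tapbp* (0.73) and *B2m* (0.79), and *B2m* with *H2-D1* (0.75). The remaining pair was *H2-D1* with *Tap2* (r = 0.74, adjusted p 0.0173 in r and 0.044 in rho), and 0 pairs with *Tap1* passed in both measures. The pairs that no longer passed had r not much lower than with all libraries. With *Tap1*, r was 0.62 for *H2-K1* (0.68 with all), 0.57 for *B2m* (0.63), 0.59 for *H2-D1* (0.65) and 0.56 for *Tapbp* (0.63). For *H2-D1* with *Tapbp* it was 0.61 (0.69). In CD8+ T cells r ran from −0.65 to 0.52 with a median of −0.02, 18 of 36 were above 0 and 0 passed the permutation test after adjustment (2 pairs in r and 1 in rho at unadjusted p under 0.05); the difference between the cell types was not tested, and T cell libraries were shallower. Depth, macrophage content and any other property of a library are shared by all its genes, and their part in these correlations was not tested.

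As a description, the genes outside the 9 most like their mean profile in TAMs, compared with 1584 genes whose normalized number averaged 20 or more, were *Atp5j* (r = 0.93), *Gpr171* (0.92), *Psap* (0.90), *Ctsc* (0.90) and *Upp1* (0.90), over 18 libraries with group means removed. In all, 25.1% of these genes had r above 0.5, and 17.4% without *muMt*-/- + GABA replicate 1, where the values of the 5 were 0.91, 0.93, 0.94, 0.89 and 0.86. In T cells the 5 of 345 genes were *Psme1* (0.59), *Rpl9* (0.56), *Sh3bgrl3* (0.53), *Rpl7* (0.51) and *Tnfaip3* (0.50), with 1.45% above 0.5. *Psme1*, a subunit of the proteasome activator PA28, belongs to the immunoproteasome list.

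Of the 9 genes, 6 lie in or beside the MHC on chromosome 17 (GRCm38.p6): *Tapbp* at chr17:33919478-33929290, *H2-K1* at chr17:33996012-34000619, *Tap1* at chr17:34187556-34197225, *Tap2* at chr17:34204479-34216321, *H2-D1* at chr17:35263094-35267497 and *H2-T23* at chr17:36029977-36032701. *B2m* is at chr2:122147687-122153082, *Nlrc5* at chr8:94434335-94527272 and *Erap1* at chr13:74639573-74693205. *Tap1* and *Tap2* had log2 fold changes of −0.02 and 0.67 between *muMt*-/- and WT TAMs, and the difference between them was not tested. *H2-D1* has a closely related gene in the table, *H2-L*, to which 148 molecules were assigned in all, against 10093 for *H2-D1*, and how reads were shared between them is not known.

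Promoter sequences, taken from RefSeq (build GRCm38.p6), were found for 7 of the 9 genes, all but *Tap2* and *Nlrc5*, and the 250 bases before the first start listed for each were searched on both strands for 5 short motifs. For *H2-K1* and *Erap1* this start lies inside the span of the gene given above, and so do all 250 bases searched. The core of the interferon-stimulated response element bound by IRF factors, GAAANNGAA, was in 3 of 7 (*B2m*, *Erap1* and *H2-T23*) and in 7.16% of all 27025 promoters. The NF-κB motif GGGNNTTCC was in 2 (*H2-D1* and *H2-K1*) and in 4.88% of all. The STAT motif TTCNNNGAA was in 0 of 7 and in 7.18% of all. The core of the CREB/ATF motif, TGACG, was in 4 (*B2m*, *H2-D1*, *H2-K1* and *Tap1*) and in 17.9% of all, and the NF-Y motif CCAAT in 6, all but *Erap1*, and in 34.5% of all. No matches of different motifs overlapped. The upstream stretches of *H2-K1* and *H2-D1*, the pair with the highest correlation in TAMs, were 87.4% identical over their best ungapped overlap, 166 of 190 bases. A match is a description of letters and says nothing of binding in these cells.

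4 of these sequences are shown 5′ to 3′ on the strand of the gene, with motif matches of either strand in capitals, because they set the light chain, a heavy chain and a transporter subunit from the pairs that passed in TAMs (*Tap1* not without *muMt*-/- + GABA replicate 1) beside *H2-T23*, which was in 0 of them. They are *B2m* (chr2:122147437-122147686, plus strand), *H2-D1* (chr17:35262844-35263093, plus strand), *Tap1* (chr17:34187306-34187555, plus strand) and *H2-T23* (chr17:36032702-36032951, minus strand). TGACG stands before the ATTGG or CCAAT nearest the start in *B2m* and *H2-D1*, and *H2-T23* holds CCAAT and the reverse complement of GAAANNGAA.
B2m: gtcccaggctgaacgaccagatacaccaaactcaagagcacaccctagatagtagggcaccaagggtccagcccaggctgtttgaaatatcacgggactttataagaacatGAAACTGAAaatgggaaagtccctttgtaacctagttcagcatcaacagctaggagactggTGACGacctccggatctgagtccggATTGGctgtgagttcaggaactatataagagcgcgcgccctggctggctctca
H2-D1: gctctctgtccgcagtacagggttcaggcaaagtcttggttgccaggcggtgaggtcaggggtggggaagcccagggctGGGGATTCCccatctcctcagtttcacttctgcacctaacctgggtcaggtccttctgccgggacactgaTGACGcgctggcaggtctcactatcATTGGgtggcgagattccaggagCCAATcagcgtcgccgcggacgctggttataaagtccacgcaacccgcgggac
Tap1: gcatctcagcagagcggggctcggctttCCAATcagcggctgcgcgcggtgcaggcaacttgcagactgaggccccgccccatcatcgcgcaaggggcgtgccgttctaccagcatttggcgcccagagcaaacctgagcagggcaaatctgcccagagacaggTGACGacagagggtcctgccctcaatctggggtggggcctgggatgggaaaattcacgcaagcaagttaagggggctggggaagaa
H2-T23: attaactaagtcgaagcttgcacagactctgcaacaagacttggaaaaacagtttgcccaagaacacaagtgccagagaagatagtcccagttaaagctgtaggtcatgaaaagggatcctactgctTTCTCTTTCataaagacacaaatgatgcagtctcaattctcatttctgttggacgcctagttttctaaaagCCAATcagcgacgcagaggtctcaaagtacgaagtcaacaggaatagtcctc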

How the data were processed

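The deposited table holds molecule counts: the authors mapped reads to mm10 with STAR, counted barcoded molecules per gene, and normalized with DESeq2 size factors. All 36 libraries were used as their labels give them. Counts were tested with edgeR 4.0.16 (quasi-likelihood F-test, TMM, R 4.3.3), 1 fit per cell type and 1 over both, for genes with a mean normalized number above 1, and adjusted by Benjamini-Hochberg over all genes tested at 0.05. Alternatives were DESeq2 size factors, library totals, DESeq2 1.42.0, no filter, a replicate block and, within a cell type, leaving out each library. DESeq2 gave some genes no adjusted p in some comparisons, and these could not be called by it there. An alternative added after seeing the data left *muMt*-/- + GABA TAM replicate 1 out of the correlations. Correlations and sequence searches used Python 3.11.15, numpy 2.4.6, pandas 2.3.3 and scipy 1.17.1, and plots matplotlib 3.10.9. Genes named are the 9, list genes called within a cell type, otherwise up to 4 abundant list genes, and the 5 most alike, and list genes called between cell types were chosen after their values were seen. Members and lists were chosen with earlier results of these data known. The table held 0 rows of spike-in RNA, 9188 genes with no molecule and 26 date-like names.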

Additional observations from a re-analysis of the deposited data

Results flagged for a closer look

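Each of the 9 genes was looked at in each of the 6 groups of 6 libraries, 54 sets in all, for a single library far from the other 5. Chance flags about 1 in 20 groups, and 3 of 54 were found.

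*B2m* in *muMt*-/- + GABA CD8+ T cell replicate 1 had a normalized number of 408.651, and the next library 312.29. The same library had the lowest *H2-K1* of its group, 52.1, and macrophage markers at 31.5 molecules per 10000. Replicate 3 of this group had macrophage markers at 32.3 and a *B2m* of 264.634. The part of these markers in the value was not tested. *Tapbp* in WT CD8+ T cell replicate 1 had a normalized number of 5.49961, from 3 molecules, and the next library 14.427. *Erap1* in WT TAM replicate 5 had a normalized number of 10.0443, and the next library 11.9954.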

How the results depend on the processing

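Depth and the setting limit these results. CD8+ T cell libraries held as few as 22896 molecules, where *H2-T23* rests on 0 to 12 molecules per library. Of 1042 values of the 9 genes under an alternative, 949 kept their direction and their side of the threshold on adjusted p, 6 passed it newly, 7 no longer passed it and 80 changed sign. Of 236 values of the list genes called, 199 kept both and 37 no longer passed. The calls of *H2-T23* and *Tap2* in TAMs depend on the tool or the setting, and the cause was not tested. WT mice were C57BL/6J or C57BL/6N and *muMt*-/- mice C57BL/6J, so a part of substrain in the genotype comparisons cannot be told apart.

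Counts that moved were these, and the cause was not tested. Of the 9 genes between *muMt*-/- and WT TAMs, 1 was called with library totals, 2 by DESeq2 (4 unadjusted) and 1 without the filter, against 0. Between *muMt*-/- + GABA and WT TAMs DESeq2 counted 3 unadjusted, and between WT TAMs and WT T cells 3 were called with DESeq2 size factors, with library totals and by DESeq2, against 5. Over all genes, *muMt*-/- against WT TAMs gave 1111 by DESeq2 unadjusted and 343 without the filter, against 194. GABA against *muMt*-/- TAMs gave 7 with library totals, 62 by DESeq2 (580 unadjusted) and 51 without the filter, against 2, and GABA against WT TAMs 13 by DESeq2 (440 unadjusted) and 63 without the filter, against 7. In T cells *muMt*-/- against WT gave 222 by DESeq2 unadjusted and 72 without the filter, GABA against *muMt*-/- 133 and 11, and GABA against WT 222 and 64, with 1 by DESeq2 adjusted, with its size factors and with library totals, against 0 in each. The genotype interaction gave 0 with DESeq2 size factors and with library totals, 38 by DESeq2 (600 unadjusted) and 79 without the filter, against 1, and the GABA interaction 361 by DESeq2 unadjusted and 17 without the filter, against 0. Pairs of class I genes whose correlation passed in TAMs numbered 5 without *muMt*-/- + GABA replicate 1, against 9, an alternative chosen after seeing the data.

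The replicate block pairs libraries by number, although the sample titles do not say whether equal numbers belong together. With this block, counts over all genes were 201, 4 and 6 in TAMs and 0, 2 and 1 in T cells (*muMt*-/- against WT, GABA against *muMt*-/-, GABA against WT). They were 1914 between cell types, and 2 and 0 for the interactions. Of the 9 genes the block called 5 between cell types and 0 elsewhere. Under the replicate block the sign changed for *H2-K1* (−0.025) and *H2-D1* (−0.014) in GABA against *muMt*-/- TAMs and for *Nlrc5* between cell types (−0.020).

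Leaving out 1 library, counts over all genes ran from 67 to 231, 2 to 36 and 2 to 9 in TAMs and from 0 to 13, 0 to 1 and 0 to 1 in T cells, in the same order. Of the 9 genes 0 to 1 were called in *muMt*-/- against WT TAMs and 0 in the others.

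These log2 fold changes changed sign under other scalings or tools. In *muMt*-/- against WT TAMs, *Tap1* was 0.0035 with DESeq2 size factors and 0.0014 by DESeq2. In GABA against *muMt*-/- TAMs, with DESeq2 size factors and by DESeq2, *H2-K1* was −0.0088 and −0.0093, *H2-D1* −0.021 and −0.021, and *Tapbp* −0.0022 and −0.0016, and *Nlrc5* was −0.011 with the size factors. In GABA against WT T cells, with DESeq2 size factors, library totals and DESeq2, *H2-K1* was −0.100, −0.093 and −0.099, *Tap1* −0.129, −0.127 and −0.117, and *Erap1* −0.083, −0.092 and −0.083. Between cell types *Nlrc5* was −0.171, −0.340 and −0.221, and *Erap1* −0.093 with library totals. For the interactions, *H2-T23* was 0.017 with library totals (GABA), and *B2m* −0.048 and *H2-K1* −0.038 without the filter (genotype).

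Leaving out 1 library turned these signs, given as lowest to highest. In *muMt*-/- against WT TAMs, *Tap1* ran from −0.092 to 0.065 and *Nlrc5* from −0.33 to 0.066. In GABA against WT TAMs, *Nlrc5* ran from −0.34 to 0.073, *H2-K1* from −0.20 to 0.042, *H2-D1* from −0.023 to 0.16 and *Erap1* from −0.022 to 0.17. In GABA against *muMt*-/- TAMs, *B2m* ran from −0.033 to 0.10, *H2-K1* from −0.10 to 0.15, *H2-D1* from −0.076 to 0.11, *Tapbp* from −0.11 to 0.13 and *Nlrc5* from −0.16 to 0.16. In *muMt*-/- against WT T cells, *Tap2* ran from −0.069 to 0.55, *Nlrc5* from −0.057 to 0.39 and *Erap1* from −0.047 to 0.34. In GABA against WT T cells, *H2-K1* ran from −0.029 to 0.16, *Tap1* from −0.12 to 0.14 and *Erap1* from −0.096 to 0.14, and against *muMt*-/- T cells *Erap1* ran from −0.28 to 0.046 and *Tap2* from −0.026 to 0.28.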
